A study of Schizosaccharomyces pombe with 2 samples.

Results

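Transcripts of actin, tubulin, the motors, the spindle pole body and the septins stood within 2-fold of their wild-type levels in fission yeast cells without ppr10, and eng1, a gene for the separation of daughter cells, stood lower. The data are RNA sequencing of Schizosaccharomyces pombe, with 1 library of ppr10 deletion cells and 1 library of wild-type cells, each grown to logarithmic phase. Pentatricopeptide repeat proteins such as Ppr10 bind RNA in organelles. The strain background, and whether the deletion is 1 clone, are not stated in the labels or the table. With 1 library per group no difference can be set against the spread between cultures, so none was tested.

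Genes were chosen by whole words (actin, tubulin, microtubule, kinesin, dynein, myosin, septin, formin or spindle pole) in the Blast nr text, the protein match that the deposited table gives for a gene. Of 5076 genes, 1 met this rule, the actin-like protein gene arp10. The table gives such a text for 1343 genes and none for the other 3733, and the rows of actin, the tubulins, the septins and the formins have no text. The rule therefore does not mark out the cytoskeleton, and arp10 is the one gene it describes. The other genes below were not chosen by that rule. They come from 12 lists written by role from knowledge of fission yeast, which together hold 141 genes. The lists were written with earlier results of these data known, so they are not independent of the values below. Another selection, made after the table was seen, applied the same words to the RefSeq product names and found 90 genes, 68 of them in the lists.

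Fission yeast grows at its ends and divides in the middle. Actin filaments, built in part by formins and serving as tracks for myosins, form patches, cables and the contractile ring. Microtubules of alpha- and beta-tubulin, carrying kinesins and dynein, place the nucleus and build the spindle from the spindle pole bodies. After mitosis the septation initiation network starts ring constriction, glucan synthases lay down the septum, and septins recruit the enzymes that dissolve it.

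Uniquely mapped reads numbered 16885000 in the deletion library and 17053000 in the wild type, each to the nearest 1000. The library labelled as the deletion had 12 reads of ppr10, against 1879 in the wild type. RPKM is reads scaled to gene length and library size. A difference is log2((deletion RPKM + 1)/(wild-type RPKM + 1)), and a gene counts as higher or lower where it reaches 2-fold. The 2-fold limits were passed by 3.93% of the 4986 genes whose RPKM averaged 1 or more, with 2.79% higher and 1.14% lower, and the median difference was 0.05. Ratios of RPKM carry exact 95% intervals that cover counting error only. For 70.4% of all genes that interval excludes 1, so an interval clear of 1 does not single a gene out.

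The gene arp10 (SPBC56F2.03, chromosome II) encodes an actin-related protein. In budding yeast, Arp10 belongs to dynactin, the complex that helps dynein to move along microtubules. It had 531 reads in the deletion library and 475 in the wild type, or 27.5 and 24.4 RPKM. The ratio was 1.13 (0.996 to 1.28) and the log2 difference 0.17, within the 2-fold limits. In the wild type its level was above that of 16.0% of all genes in the table. Reads covered almost its whole length in both libraries, with deposited coverage values of 99.56 and 99.65. The annotation places the long noncoding RNA SPNCRNA.1671 antisense to the whole arp10 coding sequence. The labels do not say whether strand was kept; without strand, reads of the 2 genes cannot be told apart.

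Known dynactin partners were weaker than arp10. The gene of the centractin Arp1, which forms the dynactin filament, had 8.42 RPKM in the deletion library and 7.41 RPKM in the wild type. The gene of the large microtubule-binding subunit, ssm4, had 3.97 RPKM in the deletion library and 3.32 RPKM in the wild type. Both had a small positive difference, 0.16 for arp1 and 0.20 for ssm4, and ratio intervals that include 1. The dynamitin gene jnm1 went the other way. It had 101 reads in the deletion library and 170 in the wild type, or 5.66 and 9.44 RPKM, a ratio of 0.600 (0.464 to 0.772) and a log2 difference of −0.65. Its coding sequence lies wholly opposite an annotated noncoding RNA.

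Of 8 listed genes of dynein and dynactin, all lay between the limits, with a median difference of −0.07. The dynein heavy chain gene dhc1, which encodes the motor itself, had 4.97 RPKM in both libraries. The light chain gene dlc1 had 80.4 RPKM in the deletion library and 105.8 RPKM in the wild type (difference −0.39). The intermediate chain gene dic1 had 6.81 RPKM in the deletion library and 4.66 RPKM in the wild type (0.46), from 188 and 130 reads. Dynein acts in fission yeast mainly in the nuclear movements of meiosis, and except for its light chains these genes stood at low levels in both libraries.

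**Figure D1:**
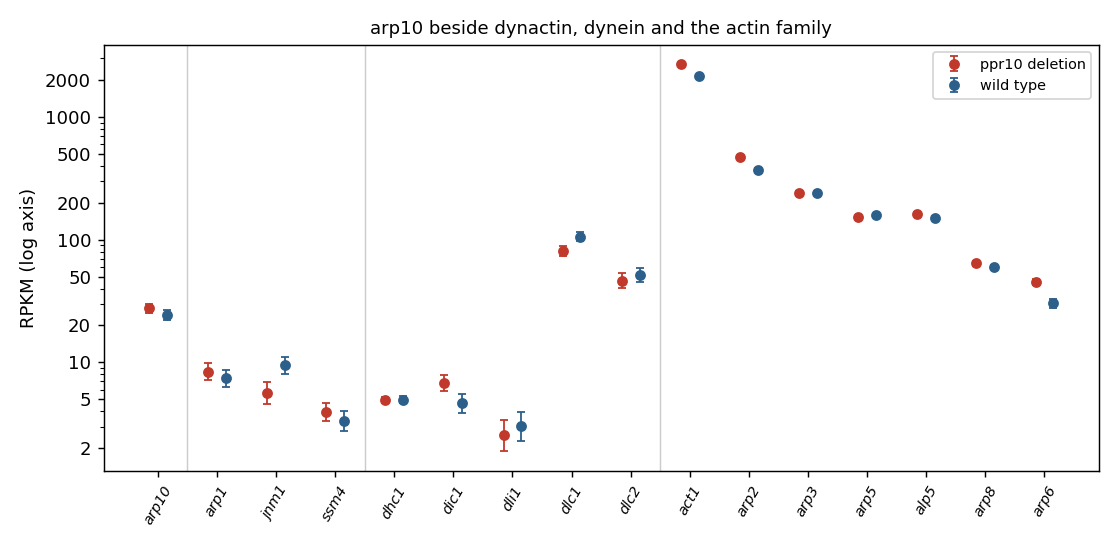
RPKM (log axis) of arp10, of dynactin, of dynein and of the actin family, in the deletion library (left point of each pair) and the wild-type library (right point); bars are 95% counting intervals of each library. The arp10 points, 27.5 and 24.4 RPKM, lie above those of arp1, jnm1 and ssm4 and below those of act1, arp2 and arp3.

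Among the actin-family genes measured per length, the actin gene act1 was by far the strongest, with 2676 RPKM in the deletion library and 2149 RPKM in the wild type (difference 0.32). The genes arp2 and arp3, whose proteins form the core of the Arp2/3 complex that branches actin filaments, followed. The level of arp2 was 469.8 RPKM in the deletion library and 372.7 RPKM in the wild type, and its difference was 0.33. The level of arp3 was 241 RPKM in the deletion library and 239 RPKM in the wild type, a difference of 0.01. Of the actin-family genes plotted, arp1 alone stood below arp10 in both libraries.

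Over all 12 lists, 1 of 141 genes was lower, none was higher and 140 lay between, which is 0.709% against 3.93% of all genes. The median was 0.06, with quartiles at −0.08 and 0.20, beside −0.17 and 0.26 for all genes. A smaller limit of 1.5-fold was passed by 5 of the 141, or 3.55%, against 12.4% of all genes. Of these 5, 4 were in the cell separation list, eng1, adg2 and agn1 among them, and the other was jnm1. Of the 90 genes found by product name none was higher or lower, and their median was 0.06. With a pseudocount of 0.1 RPKM, or relative to the median gene, 1 of them, the dynein anchor gene num1, was lower. Among all genes these settings put 226 and 190 past the limits, in place of 196.

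**Figure D2:**
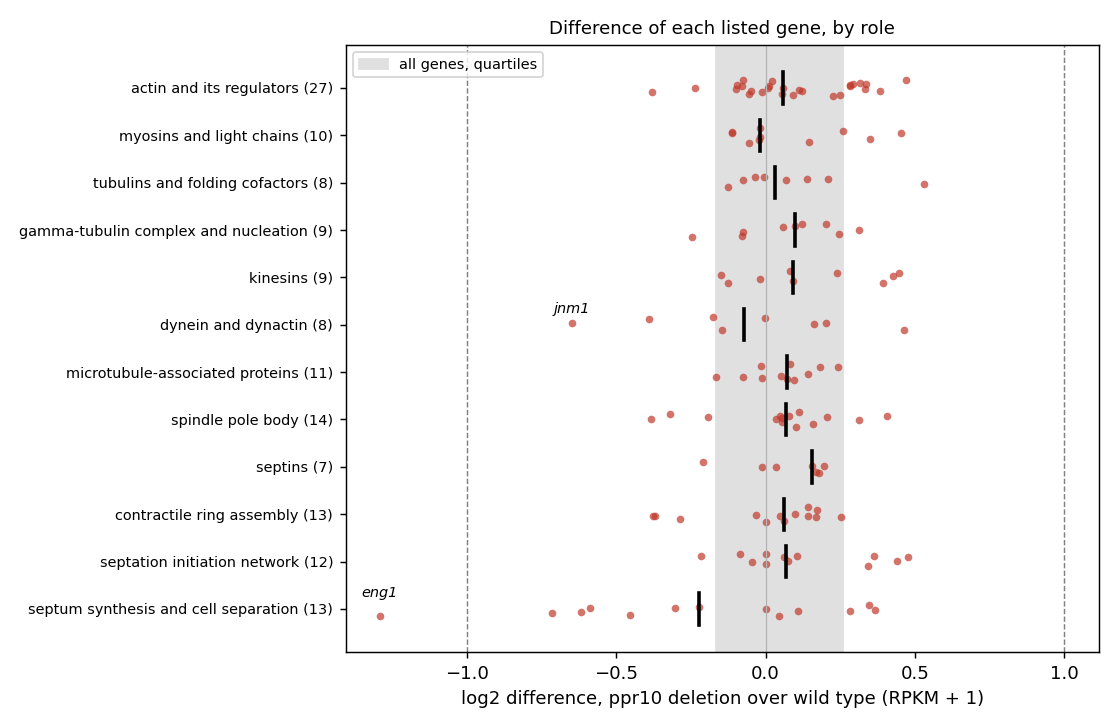
Log2 difference of each listed gene (point), deletion over wild type, by role, with the number of genes in brackets; black bars are list medians, dashed lines the 2-fold limits and the grey band the quartiles of all genes (−0.17 to 0.26). Only eng1, at −1.29, lies past a limit.

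The 27 genes of actin and its regulators had a median difference of 0.06 and a range of −0.38 to 0.47. At the upper end was cap1, whose protein binds adenylyl cyclase and actin monomers, with 209.6 RPKM in the deletion library and 151 RPKM in the wild type. At the lower end was cdc12, the formin that nucleates actin for the contractile ring, with 27.4 RPKM in the deletion library and 36.0 RPKM in the wild type, a ratio of 0.761 (0.723 to 0.801). The 2 other formin genes differed less, by −0.08 for for3, which builds actin cables, and by 0.12 for fus1, which acts in mating. The Tea1 anchor gene mod5 (0.38) and the formin activator gene bud6 (0.33) were next in size. Of the 7 subunit genes of the Arp2/3 complex, arp2 (0.33) and arc2 (0.29) differed most, and the other 5 lay between −0.06 and 0.11.

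Genes of filament-binding proteins also differed little. Tropomyosin, cdc8, stood at 815 RPKM in the deletion library and 670.4 RPKM in the wild type, a difference of 0.28. Cofilin, adf1, which severs filaments, stood at 730.3 RPKM in the deletion library and 771 RPKM in the wild type, a difference of −0.08. Profilin, cdc3, which supplies monomers to formins, had a difference of −0.10. The crosslinkers fimbrin (fim1) and alpha-actinin (ain1) had differences of 0.22 and 0.09.

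The 10 genes of myosins and their light chains had a median of −0.02. The 5 heavy chain genes lay between −0.11 and 0.14. They were myo1 of endocytic patches, myo2 and myp2 of the contractile ring, and the type V genes myo51 and myo52. The level of myo2 was 39.6 RPKM in the deletion library and 35.8 RPKM in the wild type. The largest difference was that of rlc1, the regulatory light chain of myosin II, with 123 RPKM in the deletion library and 89.9 RPKM in the wild type (0.45). It was followed by rng3, the chaperone that folds myosin heads (0.35), and the calmodulin gene cam1 (0.26). The essential light chain gene cdc4 stood at −0.11.

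The tubulin genes differed little between the libraries. The main alpha-tubulin gene nda2 had 395 RPKM in the deletion library and 416 RPKM in the wild type. The second alpha-tubulin gene, atb2, had 184 RPKM in the deletion library and 176 RPKM in the wild type. Beta-tubulin, nda3, had 585 RPKM in the deletion library and 599.9 RPKM in the wild type. Gamma-tubulin, gtb1, which starts new microtubules, had 46.9 RPKM in the deletion library and 49.4 RPKM in the wild type. The differences of these 4 genes ran from −0.08 to 0.07. No stretch of 50 coding bases of any listed gene, the 2 alpha-tubulin genes included, occurs in the coding sequence of another annotated gene. Noncoding genes, untranslated ends and opposite strands were not searched.

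Of the cofactors that fold tubulin, tbc1 (cofactor C) had the largest positive difference among all listed genes. It stood at 17.2 RPKM in the deletion library and 11.6 RPKM in the wild type, from 226 and 154 reads, a difference of 0.53. An annotated noncoding RNA lies antisense to the whole tbc1 coding sequence. The others named by rule were alp11 (0.21), alp1 (0.14) and alp21 (−0.13). In the 9 genes of the gamma-tubulin complex and its linkers the median was 0.10. The complex subunit genes mod21 and alp6 marked the ends of the range, at 0.31 and −0.25, and alp4 stood at 0.20. The small subunit gene mzt1 (0.25) had only 64 reads in the deletion library and 54 in the wild type. Its ratio interval of 0.820 to 1.75 includes 1. An annotated protein-coding gene on the same strand overlaps 47.2% of its coding sequence.

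The 9 kinesin genes had a median of 0.09 and no negative difference beyond −0.15. The largest was that of tea2, which carries the plus-end protein Tip1 along microtubules to the cell ends, with 34.9 RPKM in the deletion library and 25.4 RPKM in the wild type (0.45). It was followed by klp3 (0.43), by klp9, which slides the spindle apart in anaphase (0.39), and by pkl1 (0.24). The spindle motor cut7 differed by 0.08, and the paired kinesin-8 genes klp5 and klp6 by −0.02 and −0.15. The 11 genes of microtubule-associated proteins had a median of 0.07. Among them were ase1, the midzone crosslinker (0.24), alp7 (0.18), the CLASP gene peg1 (−0.17) and the EB1 gene mal3 (0.14).

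The 14 genes listed for the spindle pole body had a median of 0.07, and 11 of the differences were positive. Among all 4986 genes measured, 2845 differences were positive and the median was 0.05. The scaffold gene sid4, which ties the septation network to the pole, stood at 35.0 RPKM in the deletion library and 46.0 RPKM in the wild type (−0.38). Its partner cdc11 went the other way, with 49.9 RPKM in the deletion library and 40.0 RPKM in the wild type (0.31). The centrin gene cdc31 stood at −0.32. This list also holds nif1 (0.41), annotated as a kinase inhibitor, and cut8 (0.04), annotated as a proteasome tether. The genes sad1, ppc89, pcp1, cut11 and cut12 lay between 0.05 and 0.20, while sfi1 stood at −0.19.

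Septin genes lay within a narrow range. The 4 septin genes of the mitotic ring were spn1, spn2, spn3 and spn4, with 132.6 to 163 RPKM in the deletion library and 116 to 151 RPKM in the wild type. Their differences were 0.20, 0.17, 0.04 and 0.18. The genes spn5, spn6 and spn7 stood between 20.6 and 30.0 RPKM in the deletion library and between 20.8 and 34.8 RPKM in the wild type. The annotation names spn5 and spn7 as meiotic septins and spn2 as both mitotic and meiotic, and gives no stage for spn6. The difference of spn7 was −0.21.

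**Figure D3:**
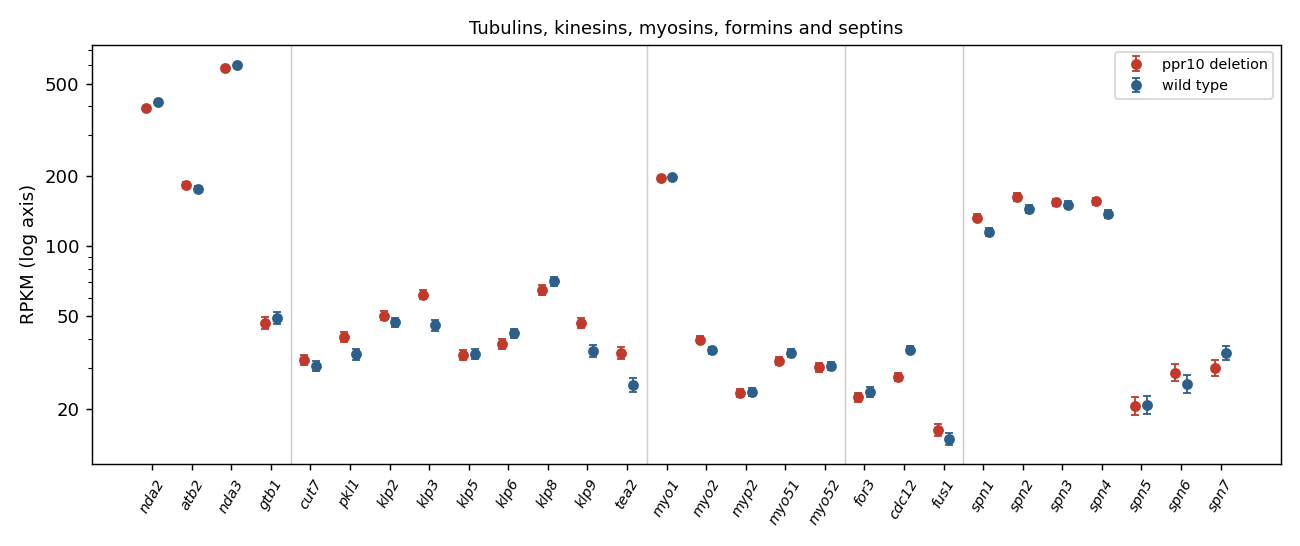
RPKM (log axis) of tubulin, kinesin, myosin, formin and septin genes in the deletion library (left point) and the wild-type library (right point); bars are 95% counting intervals of each library. Pairs such as cdc12 (27.4 and 36.0 RPKM) and tea2 (34.9 and 25.4 RPKM) stand apart, and nda3 is the highest, at 585 and 599.9 RPKM.

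Genes of the contractile ring did not differ beyond the limits either. The 13 listed had a median of 0.06. The anillin gene mid1 (0.05), the F-BAR gene cdc15 (0.00) and the IQGAP gene rng2 (0.06) were nearly equal in the 2 libraries. The ring's formin gene cdc12, listed with actin, stood at −0.38. The list's lower end held blt1 (−0.38), the paxillin gene pxl1 (−0.37) and fic1 (−0.29), and its upper end rga7 (0.25). The 12 genes of the septation initiation network had a median of 0.07. Its GTPase gene spg1 had 87.8 RPKM in the deletion library and 87.7 RPKM in the wild type. The kinase regulator gene mob1 had 37.8 RPKM in the deletion library and 26.9 RPKM in the wild type (0.48), while its kinase gene sid2 stood at −0.05. The inhibitor gene cdc16 (0.44), the Polo kinase gene plo1 (0.36) and the kinase gene sid1 (0.34) followed.

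The list of septum synthesis and cell separation held the only listed gene past 2-fold. Of its 13 genes 1 was lower, or 7.69% against 3.93% of all genes higher or lower, and 12 stayed within the limits. That single gene does not set the list apart. A limit of 1.5-fold was passed by 4 of the 13, or 30.8%, against 12.4% of all genes. Of the differences 6 were positive and 7 negative, against 2845 and 2141 among all genes measured. The list's median of −0.22 stands beside 0.05 for all genes. The gene lower was eng1 (SPAC821.09, chromosome I), which encodes the endo-beta-glucanase that dissolves the primary septum. It had 2501 reads in the deletion library and 6256 in the wild type, or 48.5 and 120.2 RPKM. The ratio was 0.404 (0.385 to 0.423) and the log2 difference −1.29, at place 31 from the lowest of 4986 genes. An annotated antisense RNA covers 94.8% of its coding sequence.

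Further genes of this list that act in cell separation also stood below their wild-type levels, though not past 2-fold. The alpha-glucanase gene agn1, whose enzyme breaks down the cylinder wall around the septum, stood at 125 RPKM in the deletion library and 189 RPKM in the wild type (−0.59). The level of adg2 was 114 RPKM in the deletion library and 175 RPKM in the wild type (−0.62). The septin ring organiser gene mid2 stood at 219.7 RPKM in the deletion library and 302 RPKM in the wild type (−0.46). The differences of adg1 and adg3 were −0.30 and −0.22.

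The beta-glucan synthase genes that build the septum and wall had differences of the opposite sign. The level of bgs1, the synthase of the primary septum, was 53.5 RPKM in the deletion library and 41.3 RPKM in the wild type (0.37). The level of bgs4 was 172 RPKM in the deletion library and 135 RPKM in the wild type (0.35). The difference of bgs3 was 0.28. That of the alpha-glucan synthase gene ags1 was 0.05, and it falls just below 0 when scaled to the median gene. The forkhead transcription factor gene sep1 had a difference of 0.11.

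**Figure D4:**
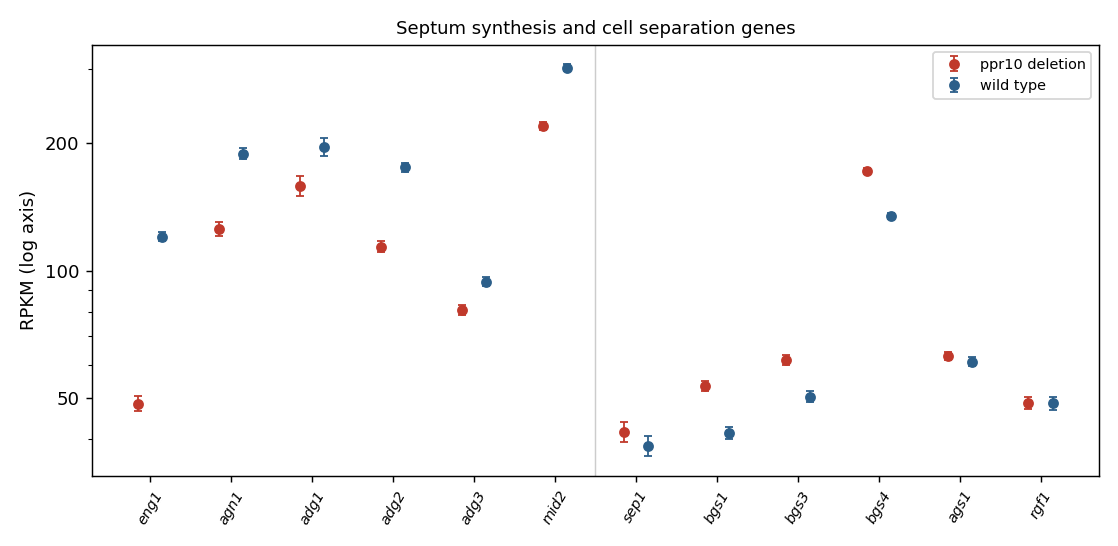
RPKM (log axis) of genes of septum synthesis and cell separation in the deletion library (left point) and the wild-type library (right point); bars are 95% counting intervals of each library. For the genes from eng1 to mid2 the deletion point lies below the wild-type point, and the eng1 pair, 48.5 and 120.2 RPKM, is the widest apart.

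A culture could also hold mating or meiotic cells, so markers of that state were read beside these values. Among 11 such genes the median difference was 0.10. The meiotic gene spo5 was higher (3.09 RPKM in the deletion library and 0.964 RPKM in the wild type). It is a weak gene, with only 89 reads in the deletion library and 28 in the wild type. The oligopeptide transporter gene isp4 was lower (12.9 RPKM in the deletion library and 37.2 RPKM in the wild type), and 9 lay between. The 2-fold limits were thus passed by 18.2% of the 11, against 3.93% of all genes. A limit of 1.5-fold was passed by 3 of the 11, or 27.3%, against 12.4% of all genes. The third was ste11, the transcription factor that starts mating, with 17.9 RPKM in the deletion library and 10.1 RPKM in the wild type (0.77; ratio 1.77, 1.51 to 2.09). The activator gene rep1 had 12.3 RPKM in the deletion library and 8.10 RPKM in the wild type (0.54). The gene mug5 went the other way, with 12.9 RPKM in the deletion library and 17.4 RPKM in the wild type (−0.40). The mating genes mam1, a pheromone transporter, mam2, a pheromone receptor, and map2, a pheromone, differed by 0.29, 0.04 and 0.10. The mating formin gene fus1 differed by 0.12. The meiotic forkhead gene mei4 had 3.89 RPKM in the deletion library and 4.38 RPKM in the wild type, and the meiotic regulator gene mei2 had 6.23 RPKM in the deletion library and 6.27 RPKM in the wild type. The part of this cell state, or of the share of cells in septation, in the cell separation values was not tested. In RNA from whole cultures, fewer cells in a stage and less RNA per cell cannot be told apart.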

How the data were processed

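Both libraries are columns of a single deposited table whose values, per the file headers, are a count of uniquely mapped reads per gene, an RPKM and a coverage score. Recomputing the authors' RPKM from the deposited counts, lengths and column totals gave a largest difference of 4.99e-07. Of 5076 lengths, 5075 are multiples of 3, so they are coding lengths. The coverage score is written as a percent in the deposited table, although it exceeds 100 in 7 genes. A dash was read as 0. Per the labels' protocols, Trizol RNA went into NEBNext Ultra libraries. Bowtie2 2.2.3, TopHat2 2.0.12 and build ASM294v2 appear in the submitters' processing notes; the design text gives BWA followed by ANOVA, or TopHat followed by Cufflinks, as methods. No source used here says which one produced the values, or whether reads were counted by strand.

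The design allows no test, and no p-value was computed. Differences used a pseudocount of 1 RPKM, which shrinks those of weak genes, and genes averaging 1 RPKM or more. Ratio intervals are Clopper-Pearson at 95% from the reads of both libraries; PCR reads are not independent molecules. Names and products came from RefSeq on ASM294v3, a later build, so no coordinates are given: 5049 of 5076 identifiers matched and 27 did not. Overlap with antisense genes was read from the same annotation and found in 123 of the 141 listed genes. In 68 of them a single antisense gene covers at least 50% of the coding sequence. Protein-coding genes overlap 21 listed genes, and 1 listed gene, mzt1, is overlapped on its own strand. Of the listed symbols tub1, an older name of atb2, and mat3-Mc were not used. Calculations ran in Python 3.11.15 with scipy 1.17.1, and scaling factors came from edgeR 4.0.16 and DESeq2 1.42.0. Fold calls and intervals were run on simulated counts that held counting error only. That run checks the code and says nothing of the spread between cultures.

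The word rule and lists were chosen with earlier results of these data known. In each list, up to 4 genes averaging 5 RPKM or more with the largest absolute difference were named by rule, with arp10 and ppr10. Other named genes were chosen after their values were seen.
One gene of the lists is not reported here by name; the counts over its list include it.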

Additional observations from a re-analysis of the deposited data

How the results depend on the processing

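The text match gave 1 gene, and none higher or lower, under pseudocounts of 0.1 and 5 RPKM, edgeR's TMM factor, DESeq2's size factors, scaling to the median gene, no filter, a mean RPKM of at least 5 and a 1.5-fold limit. Keeping the dropped texts left it at 1 gene. Letting the words match inside longer ones (interacting, forming) gave 7 genes with a median of −0.14 in place of 0.17. Over the 141 listed genes only the 1.5-fold limit moved the number past the limit, to 5 in place of 1; in the cell separation list it moved to 4 in place of 1. Of the 90 genes found by product name, 1 in place of 0 passed the limit with a pseudocount of 0.1 RPKM. The same held relative to the median gene and at 1.5-fold, and num1 was that gene each time. Over all genes these settings gave 226, 190 and 620 past the limit, in place of 196. At 1.5-fold the shares were 1.11% of the 90 and 12.4% of all genes. The difference of eng1 lay between −1.34 and −1.23 under the alternatives. Scaling to the median gene lowers every difference by 0.05, so that of ags1 turns from just above to just below 0. The lists' alternatives and the search of product names were chosen after the data were seen. No paired analysis was possible because neither genotype has a second library; leaving out a replicate was likewise impossible.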

Other observations

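The search of RefSeq product names also caught genes outside the lists. The dynein anchor gene num1, chosen after its values were seen, lay at the 2-fold limit. It had 469 reads in the deletion library and 963 in the wild type, or 9.55 and 19.4 RPKM, with a ratio of 0.492 (0.440 to 0.550) and a log2 difference of −0.95. The ratio of reads itself is past 2-fold, and the pseudocount of 1 RPKM brings the difference inside the limit. The difference was −1.02 with a pseudocount of 0.1 RPKM and −0.75 with 5 RPKM. With 1 RPKM, num1 stood at place 65 from the lowest of 4986 genes. At the other end was arp6, an actin-like subunit of the Swr1 chromatin remodeller, with 45.2 RPKM in the deletion library and 30.2 RPKM in the wild type (0.57). The other nuclear actin-like genes differed less, by 0.10 for alp5, 0.10 for arp8 and −0.05 for arp5. The gene mmb1, whose protein ties mitochondria to microtubules, had 82.3 RPKM in the deletion library and 65.0 RPKM in the wild type (0.34).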
